A study of Mus musculus with 6 samples.

Results

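The genes of aminoacyl-tRNA synthetases were followed in mouse epiblast-like cells (EpiLCs) without Cables2. The members were taken by name from the deposited gene table: 20 cytosolic enzymes, 15 mitochondrial enzymes whose symbols end in 2, and 3 scaffold proteins of the multi-synthetase complex. All 38 were found among the 49585 gene rows, and all 38 passed the filter on low counts, so none was left out of the comparison. The choice did not use the measured values of the rows, but it was made with earlier results of these data known.

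RNA came from 3 libraries of Cables2-/- EpiLCs (KO) and 3 libraries of wild-type EpiLCs (WT), both of the C57BL/6 strain and with no other allele named. In both groups embryonic stem cells (ESCs), kept before in medium with LIF-conditioned medium, KSR, CHIR99021 and PD0325901, were plated on fibronectin in NDiff 227 medium with activin A (20 ng/mL), bFGF (12 ng/mL) and KSR (1%), and RNA was taken 2 days later. The sources used here do not give how many ESC clones stand behind a genotype or whether replicates were separate cultures, so p-values measure only how these libraries spread, and that may be technical variation.

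A synthetase joins an amino acid to its tRNA and so sets which residue a codon adds to a protein. Animal cells carry a cytosolic set and a nuclear-encoded mitochondrial set, and Gars and Kars each make the enzyme of both compartments from a single gene. Several cytosolic enzymes sit in a large complex held by the non-enzymatic proteins Aimp1, Aimp2 and Eef1e1, and many cytosolic synthetase genes are known targets of Atf4, the transcription factor of the amino acid response.

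The libraries held 4234788 to 5206717 counts. Cables2 had 6, 11 and 4 counts in KO libraries 04, 05 and 06, against 114, 111 and 121 counts in WT libraries 01, 02 and 03 (log2 fold change -4.16 ± 0.26, SE; edgeR quasi-likelihood test, adjusted p = 1.5e-23). The 5 EpiLC markers (Pou5f1, Fgf5, Pou3f1, Dnmt3b and Otx2) were all detected, and their summed level was 2863 to 2995 CPM (counts per 1000000 counts) in KO and 2361 to 2619 CPM in WT. Of these Fgf5 and Pou3f1 rose, to 225% and 184% of WT (edgeR adjusted p = 5.2e-10 and 1.5e-23), and the other 3 did not pass. Of the 10 fibroblast markers Postn and Lum were at 0 in every library, and the list summed to 94.9 to 102 CPM in KO and 74.9 to 83.1 CPM in WT. Fbln1 held most of that sum, with 65.2 ± 3.6 CPM in KO and 51.5 ± 3.19 CPM in WT (SD, n = 3 each). Of the 4 tested fibroblast markers only Fbln1 was called, and it rose (0.34 ± 0.09 on the log2 scale, SE; adjusted p = 0.00542, edgeR). Of the 8 primitive endoderm markers Afp was at 0, and the list summed to 6.43 to 9.45 CPM in KO and 11.8 to 14.7 CPM in WT. Of the 2 tested, Amn did not pass and Gata4 fell to 42.0% of WT (edgeR adjusted p = 0.0393), at 3 to 9 counts in KO and 13 to 18 in WT. Counts of genes on the mitochondrial genome made up 0.204% to 0.243% in KO and 0.141% to 0.152% in WT. The part of these differences in the results that follow was not tested. In bulk RNA, fewer cells that express a gene and less RNA per cell cannot be told apart.

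Among the 20 cytosolic enzymes 4 fell in the KO and none rose, at an adjusted p under 0.05 in edgeR's quasi-likelihood test. Of all 11594 tested genes 17.3% were called, 8.13% higher and 9.13% lower in KO. The genes that fell were Aars, Gars, Kars and Farsa, which make the enzymes for alanine, glycine and lysine and the catalytic subunit of the enzyme for phenylalanine. Their KO levels were 80.9%, 80.9%, 86.6% and 87.3% of WT. These are all of the cytosolic members that lie on chromosomes 6 and 8, where 35.1% of the tested genes fell. The median log2 fold change (KO minus WT) of the 20 enzymes was -0.0085, beside 0.0087 for all tested genes.

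**Figure D1:**
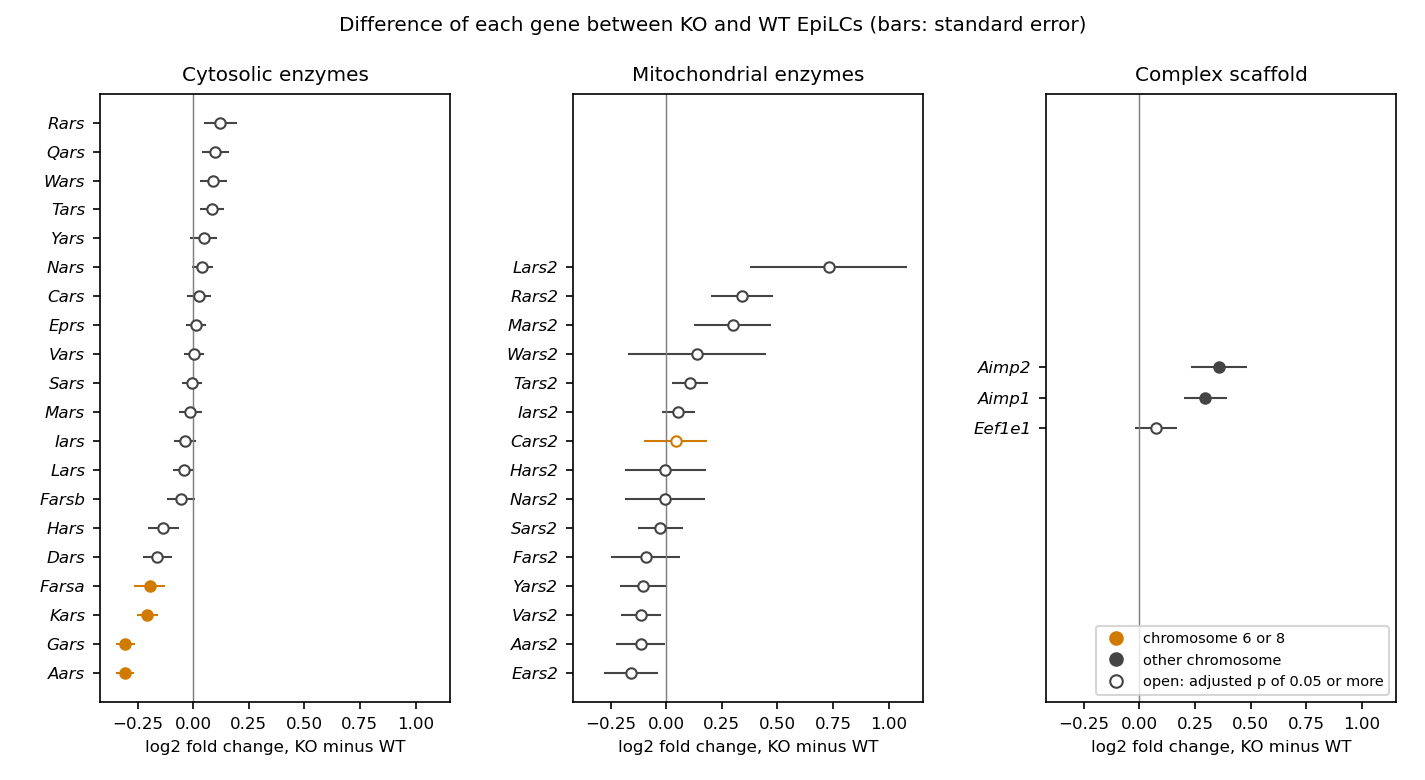
Fitted log2 fold change (KO minus WT, x axis) of each of the 38 genes, in panels for cytosolic enzymes, mitochondrial enzymes and complex scaffold. Points are fitted values, bars are standard errors, filled points passed an adjusted p of 0.05 and orange marks chromosomes 6 and 8. The 4 filled cytosolic points are orange and lie between -0.31 and -0.20, and the 2 filled scaffold points lie at 0.30 and 0.36.

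Aars (ENSMUSG00000031960.14, chromosome 8, 111033144 to 111057664, plus strand, mm10), the alanine enzyme, had 1162, 1149 and 1137 CPM in KO libraries 04, 05 and 06, against 1387, 1447 and 1431 CPM in WT libraries 01, 02 and 03. The groups did not overlap, and the lowest WT library was above the highest KO library. The means were 1150 ± 12.7 CPM in KO and 1422 ± 31.3 CPM in WT (SD, n = 3 each), a log2 fold change of -0.31 ± 0.04 (SE, adjusted p = 1.15e-08, edgeR). Its annotated exons share 14.3% of their bases with Exosc6 on the same strand, a gene that lies within Aars (111056339 to 111057664). Exosc6 is listed with 0 counts in every library, which does not show that it was silent. Whether its reads were counted for Aars or dropped is not given in the sources used here.

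Gars (ENSMUSG00000029777.10, chromosome 6, 55038007 to 55079500, plus strand) makes the glycine enzyme of cytosol and mitochondria. It had 922, 960 and 950 CPM in KO, against 1153, 1165 and 1182 CPM in WT. The libraries of each genotype lay close together and far from the other genotype. The log2 fold change was -0.31 ± 0.04 (SE, adjusted p = 2.37e-08, edgeR), from 944 ± 19.6 CPM in KO and 1167 ± 14.8 CPM in WT (SD, n = 3 each).

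Kars (ENSMUSG00000031948.14, chromosome 8, 111993443 to 112011323, minus strand) makes the lysine enzyme of both compartments and is a member of the multi-synthetase complex. Its level was 530, 532 and 528 CPM in KO libraries, against 576, 635 and 624 CPM in WT libraries. WT library 01 was the lowest of its group and the groups still did not overlap. The log2 fold change was -0.21 ± 0.05 (SE, adjusted p = 0.00057, edgeR).

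Farsa (ENSMUSG00000003808.18, chromosome 8, 84856989 to 84869257, plus strand) had 107, 101 and 112 CPM in KO, against 120, 121 and 125 CPM in WT. The groups did not overlap, with a smaller gap than for Aars or Gars. The log2 fold change was -0.20 ± 0.07 (SE, adjusted p = 0.04, edgeR), and the call was lost in 5 of the 6 fits without 1 library (all but that without KO library 06), with an adjusted p of up to 0.182. In the authors' deposited table Farsa has a signed fold of -1.15 with an FDR of 0.059. Farsb, the gene of the partner subunit of the same enzyme on chromosome 1, differed by -0.06 ± 0.06 on the log2 scale (adjusted p = 0.62).

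Because an enzyme molecule holds both subunits, the ratio of their counts was taken in each library, a comparison chosen after the values were seen. Farsa over Farsb was 0.698, 0.707 and 0.767 in KO, against 0.833, 0.768 and 0.790 in WT. The highest KO ratio and the lowest WT ratio nearly touch. The means were 0.724 ± 0.0372 in KO and 0.797 ± 0.0329 in WT (SD, n = 3 each; two-sided exact permutation p = 0.1, the smallest p that 3 against 3 libraries allow). That p says only that the groups did not overlap, and the ratio is not separate from the fall of Farsa. The median log2 fold change was -0.21 on chromosome 8, which holds Farsa, and 0.03 on chromosome 1, which holds Farsb.

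**Figure D2:**
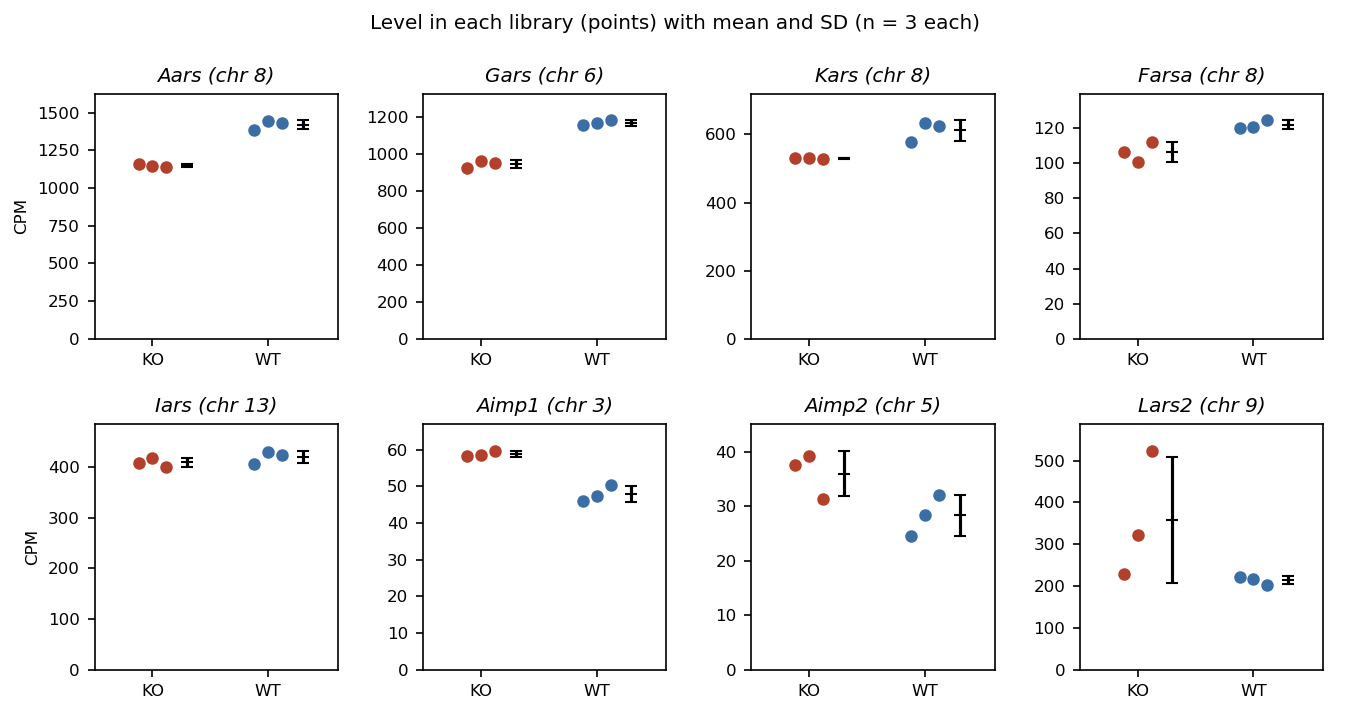
Level in CPM (y axis, from 0) of 8 members in each KO and WT library, with mean and SD beside the points (n = 3 each). Aars, Gars, Kars and Farsa are lower in every KO library than in any WT library, Iars overlaps, Aimp1 is higher in every KO library, and Lars2 spreads widely in KO.

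The other 16 cytosolic enzymes, on chromosomes other than 6 and 8, did not pass the test in either direction. Their log2 fold changes ran from -0.16 for Dars to 0.12 for Rars, with a median of 0.0091. On those chromosomes 8.88% of tested genes rose and 6.19% fell. Dars, the aspartate enzyme, was the only one of the 16 with an unadjusted p under 0.05. Dars had 123, 136 and 142 CPM in KO, against 150, 150 and 149 CPM in WT (log2 fold change -0.16 ± 0.06, SE; adjusted p = 0.0784, edgeR). The WT libraries were nearly equal and all above the KO libraries, of which library 04 was the lowest. Hars, the histidine enzyme, had 108, 107 and 101 CPM in KO, against 114, 117 and 115 CPM in WT (log2 fold change -0.13 ± 0.07, adjusted p = 0.194, edgeR). These groups did not overlap either. Hars shares 7.97% of its exon bases with Hars2 on the opposite strand, and whether the counting used strand is not given in the sources used here.

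Among the remaining cytosolic enzymes the fitted log2 fold changes below 0 were those of Farsb (-0.06), the leucine enzyme gene Lars (-0.04), the isoleucine enzyme gene Iars (-0.04), the methionine enzyme gene Mars (-0.01) and the serine enzyme gene Sars (-0.0052). Those above 0 were the valine enzyme gene Vars (0.0057), the bifunctional glutamate and proline enzyme gene Eprs (0.01), the cysteine enzyme gene Cars (0.03), the asparagine enzyme gene Nars (0.04) and the tyrosine enzyme gene Yars (0.05). The threonine enzyme gene Tars had 0.08, the tryptophan enzyme gene Wars 0.09, the glutamine enzyme gene Qars 0.10 and the arginine enzyme gene Rars 0.12. The standard errors of the 16 log2 fold changes were 0.04 to 0.07 and DESeq2 called none of the 16. Libraries of the 2 genotypes did not overlap for 10 of the 20 cytosolic enzymes, where 31.6% of all tested genes did not overlap, and 4 of those 10 were the called ones.

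Chromosomes 6 and 8 stood apart from the rest of the genome in these libraries. The median log2 fold change was -0.25 over 537 tested genes of chromosome 6, of which 35.8% fell, and -0.21 over 647 genes of chromosome 8, of which 34.5% fell. On the other 18 chromosomes the medians were between -0.01 and 0.05, and 3.74% to 9.72% of genes fell. Measured against the median of their own chromosome, Aars was lower by a log2 difference of -0.10 and Gars by -0.06, whereas Kars differed by 0.0019 and Farsa by 0.01. With scaling factors computed on each chromosome separately, an alternative chosen after seeing the data, none of the 4 passed the test (edgeR adjusted p = 0.101 for Aars, 0.681 for Gars, 1.00 for Kars and 0.948 for Farsa). In that fit Dars passed (-0.19 ± 0.07, adjusted p = 0.0324), as it did when the genes of chromosomes 6 and 8 were left out of the fit (-0.18, adjusted p = 0.0462). A difference of the single gene and one shared by its chromosome cannot be told apart for these 4 genes. The mitochondrial cysteine enzyme gene Cars2 is the other member on these chromosomes. It had 25.9, 23.0 and 22.4 CPM in KO, against 21.4, 21.9 and 26.2 CPM in WT, and the groups overlapped (log2 fold change 0.04 ± 0.14, adjusted p = 0.887, edgeR).

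**Figure D3:**
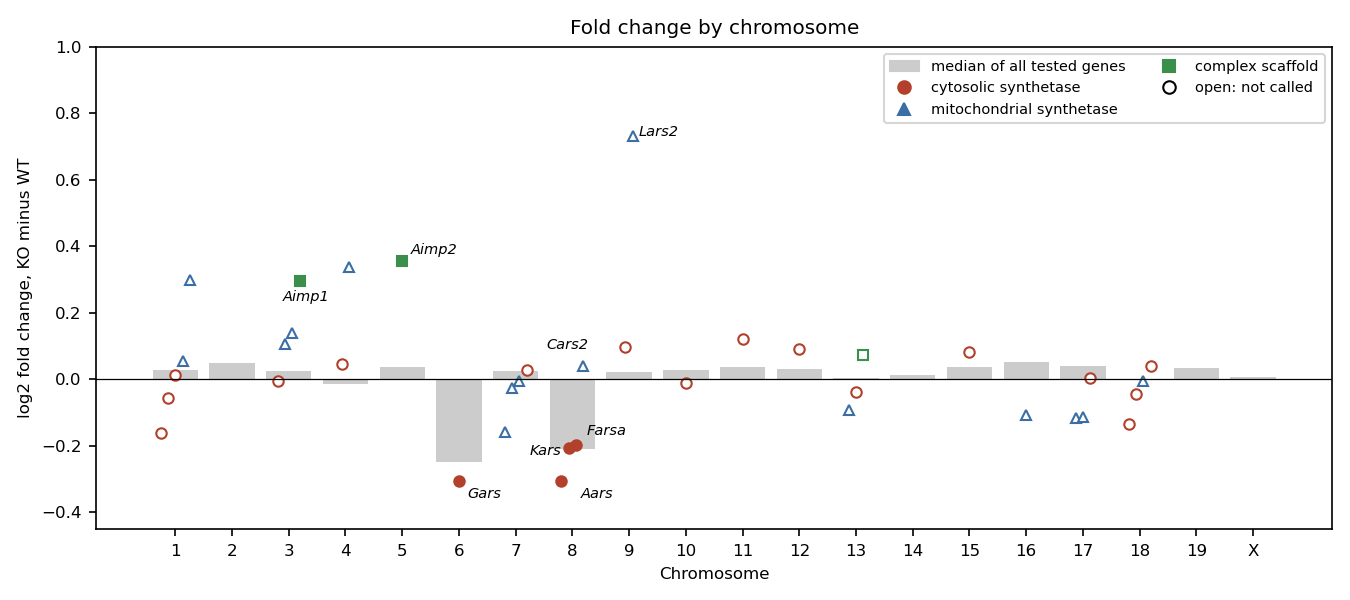
Log2 fold change (KO minus WT, y axis) by chromosome (x axis). Grey bars are the medians of all tested genes of a chromosome and symbols are the 38 members, filled where the adjusted p was under 0.05. The bars of chromosomes 6 and 8 lie at -0.25 and -0.21, with Gars, Aars, Kars and Farsa close to or below them and Cars2 above.

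Taken by structural class, 4 of the 16 class II enzymes fell and none of the 18 class I enzymes changed by the test (1 had an unadjusted p under 0.05). Of all tested genes 9.13% fell and 8.13% rose. The classes differ in the fold of the catalytic domain, and Eprs, which joins one enzyme of each class, was left out of both. All 4 class II genes that fell are on chromosomes 6 and 8, where 35.1% of tested genes fell. None of the other 12 class II genes passed. The share of class I genes on these chromosomes is 1 of 18, so class and chromosome cannot be told apart. Of the 8 enzymes held in the multi-synthetase complex, Kars fell, and of the 12 cytosolic enzymes outside it Aars, Gars and Farsa fell. These too are read beside the 9.13% of all tested genes that fell.

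The promoters were read for letters of the C/EBP-ATF response element, through which Atf4 acts on amino acid response genes, because Aars and Gars are members of the group of 12 cytosolic synthetases linked to Atf4. RefSeq windows (GRCm38.p6) of 250 bases before to 50 bases after the start were searched on both strands for TGATGNAAN. The letters were found in 5 of the 13 cytosolic members with a window (38.5%), in 0 of 14 mitochondrial members and in 0 of 3 scaffold members, and in 4.50% of the 27025 genes of the same promoter table. The shorter letters TGATGNAA are the same search apart from the window edges, because N is any base. They were in the same members and in 4.51% of all genes. The windows of Aars (chr8:111033722-111033861, plus strand), Gars (chr6:55037881-55038020, plus strand), Iars (chr13:49682010-49682149, plus strand), Tars (chr15:11399639-11399778, minus strand) and Yars (chr4:129189783-129189922, plus strand) are shown from base -120 to base 20 of the start because they hold the matches, which are in capitals. In all but Yars the match is on the strand opposite to the one printed.
Aars: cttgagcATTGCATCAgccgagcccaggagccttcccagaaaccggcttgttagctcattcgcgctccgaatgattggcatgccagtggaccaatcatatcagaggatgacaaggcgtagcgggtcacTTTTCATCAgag
Gars: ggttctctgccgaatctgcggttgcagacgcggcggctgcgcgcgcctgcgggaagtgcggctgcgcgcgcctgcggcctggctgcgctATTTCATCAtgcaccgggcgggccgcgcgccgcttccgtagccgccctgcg
Iars: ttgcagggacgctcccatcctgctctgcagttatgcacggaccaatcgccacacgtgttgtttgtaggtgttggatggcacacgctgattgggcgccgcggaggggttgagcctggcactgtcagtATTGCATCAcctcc
Tars: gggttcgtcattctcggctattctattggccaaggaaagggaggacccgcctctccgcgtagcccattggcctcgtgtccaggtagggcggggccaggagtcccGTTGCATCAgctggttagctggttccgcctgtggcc
Yars: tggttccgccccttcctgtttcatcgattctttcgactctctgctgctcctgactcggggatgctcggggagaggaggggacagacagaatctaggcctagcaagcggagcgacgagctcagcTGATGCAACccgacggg
The same stretch of Farsa (chr8:84856866-84857005, plus strand) and Kars (chr8:112011335-112011474, minus strand) is shown because these genes fell and their windows held no match, which says only that these letters are not there.
Farsa: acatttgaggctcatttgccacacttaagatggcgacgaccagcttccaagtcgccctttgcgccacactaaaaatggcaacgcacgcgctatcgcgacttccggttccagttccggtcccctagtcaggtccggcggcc
Kars: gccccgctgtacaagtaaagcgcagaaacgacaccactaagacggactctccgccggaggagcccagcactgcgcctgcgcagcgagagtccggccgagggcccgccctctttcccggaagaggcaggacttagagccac

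Of the 5 genes with the letters, Aars and Gars fell, and Iars, Tars and Yars did not pass. Iars had 409, 417 and 401 CPM in KO, against 406, 430 and 423 CPM in WT, and these overlapped. Tars had 281, 268 and 270 CPM in KO, against 255, 267 and 251 CPM in WT, with every KO library above every WT library (log2 fold change 0.08 ± 0.05, adjusted p = 0.316, edgeR). Yars had 202, 192 and 202 CPM in KO, against 197, 183 and 197 CPM in WT, and these overlapped. Among the 12 cytosolic synthetases linked to Atf4, 2 fell and none rose, where 9.13% of all tested genes fell and 8.13% rose. These 2, Aars and Gars, are the only ones of the 12 on chromosomes 6 and 8, where 35.1% of tested genes fell. The 10 others had log2 fold changes of -0.04 to 0.09 with 0 at an unadjusted p under 0.05. The letters GCGCANGCG, of the kind bound by the nuclear respiratory factor NRF1, which acts on genes of mitochondrial function, were in 3 of 13 cytosolic (Farsb, Kars and Tars), 4 of 14 mitochondrial (Iars2, Mars2, Vars2 and Wars2) and 1 of 3 scaffold members (Eef1e1), beside 7.03% of all genes.

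Of the 3 scaffold genes, Aimp1 and Aimp2 rose and Eef1e1 did not pass, where 8.13% of all tested genes rose. Aimp1 (ENSMUSG00000028029.10, chromosome 3, 132660499 to 132684370, minus strand), whose protein also binds tRNA, had 58.4, 58.5 and 59.7 CPM in KO, against 46.1, 47.4 and 50.3 CPM in WT. Every KO library was above every WT library. The log2 fold change was 0.30 ± 0.10 (SE, adjusted p = 0.0219, edgeR), and it was 0.27 to 0.33 in the fits without 1 library, with a call only without KO library 05 or WT library 03 (adjusted p up to 0.085 in the others). Its exons share 2.91% of their bases with Tbck on the opposite strand, and Tbck differed by 0.31 ± 0.13 on the log2 scale (adjusted p = 0.081).

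Aimp2 (ENSMUSG00000029610.13, chromosome 5, 143902704 to 143909847, minus strand), the core scaffold of the complex, had 37.6, 39.1 and 31.2 CPM in KO, against 24.5, 28.4 and 32.0 CPM in WT. KO library 06 and WT library 03 overlapped. The log2 fold change was 0.36 ± 0.13 (SE, adjusted p = 0.0385, edgeR), with a call in 2 of the 6 fits without 1 library, KO 06 or WT 03 (adjusted p up to 0.223), while in the authors' deposited table its signed fold is 1.28 with an FDR of 0.123. On the opposite strand Eif2ak1 shares 29.4% of the Aimp2 exon bases, and it differed by 0.20 ± 0.15 on the log2 scale (adjusted p = 0.387). Eef1e1, the smallest of the scaffold proteins, had 53.7, 56.0 and 55.2 CPM in KO, against 53.0, 53.8 and 49.6 CPM in WT, and the groups overlapped (log2 fold change 0.07 ± 0.10, adjusted p = 0.668, edgeR). By DESeq2 none of the 3 passed (adjusted p = 0.0789 for Aimp1 and 0.142 for Aimp2).

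None of the 15 mitochondrial enzymes passed the test in either direction, and 1 had an unadjusted p under 0.05. Of all 11594 tested genes 17.3% were called in either direction, and 3408 had an unadjusted p under 0.05. DESeq2 called none, and limma-voom called 1. The median log2 fold change was -0.0040. Rars2, the mitochondrial arginine enzyme, had the smallest p: 29.0, 25.6 and 26.2 CPM in KO, against 19.7, 21.0 and 23.4 CPM in WT. Every KO library was above every WT library (log2 fold change 0.34 ± 0.14, SE; adjusted p = 0.084, edgeR). Mars2, the mitochondrial methionine enzyme, had 17.3, 15.4 and 18.5 CPM in KO, against 14.5, 12.1 and 15.03 CPM in WT, again with no overlap (log2 fold change 0.30 ± 0.17, adjusted p = 0.246, edgeR). The 12 mitochondrial genes other than Rars2, Mars2 and Lars2 had log2 fold changes of -0.16 for Ears2 to 0.14 for Wars2. Wars2, the tryptophan enzyme, had 18 to 31 counts per library and a standard error of 0.31, so a difference of the size of that of Aars was not detectable at this depth.

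Lars2, the mitochondrial leucine enzyme (ENSMUSG00000035202.8, chromosome 9, 123366927 to 123462666, plus strand), was singled out after its values were seen. It had 1172, 1691 and 2315 counts in KO libraries 04, 05 and 06, against 1057, 974 and 849 counts in WT libraries 01, 02 and 03. This was 228, 321 and 523 CPM in KO, against 221, 218 and 203 CPM in WT. KO library 04 lay just above the WT libraries, and KO library 06 lay far above both others. The log2 fold change was 0.73 ± 0.35 (SE, adjusted p = 0.271, edgeR), and 0.36 without KO library 06. The coefficient of variation in KO was 42.2%, the largest among the 2138 tested genes with a mean of at least 100 CPM, whose median was 4.12%. Without robust estimation of the spread Lars2 was called (adjusted p = 1.26e-06), as it was in limma-voom (adjusted p = 0.000123), and over all alternatives its adjusted p ran up to 0.459. In the authors' deposited table its signed fold is 1.67 and its FDR 0.0218.

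Summed over genes, the cytosolic enzymes took 0.840%, 0.859% and 0.844% of all counts in KO, against 0.877%, 0.909% and 0.898% in WT. The groups did not overlap, and the means were 0.848 ± 0.00994% in KO and 0.895 ± 0.0162% in WT (SD, n = 3 each). The 4 genes on chromosomes 6 and 8 summed to 0.274 ± 0.00325% in KO and 0.329 ± 0.00951% in WT, so that KO was at 83.1% of WT. The other 16 summed to 0.574 ± 0.0069% in KO and 0.565 ± 0.00699% in WT, and there the libraries overlapped. The 15 mitochondrial enzymes together summed to 0.0904 ± 0.0161% in KO and 0.0749 ± 0.00149% in WT, with no overlap, and without Lars2 they summed to 0.0546 ± 0.00114% in KO and 0.0537 ± 0.000499% in WT, and the scaffold genes to 0.0150 ± 0.0005% in KO and 0.0127 ± 0.000487% in WT.

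Levels of different genes were compared per length, as CPM divided by the kilobases of annotated exon (GENCODE M21, all transcripts of a gene merged, so that a long rare transcript lowers the value). Gars had the highest level of the cytosolic enzymes at 303 ± 6.28 CPM per kilobase in KO and 374 ± 4.75 in WT (SD, n = 3 each). In KO Vars followed at 138 ± 0.514, then Nars at 130 ± 2.85, Sars at 125 ± 3.45, Aars at 124 ± 1.37 and Kars at 119 ± 0.41 CPM per kilobase. Among these neighbours Nars and Sars, and Sars and Aars, did not differ beyond their SDs. In WT the place after Gars was that of Aars (153 ± 3.37), ahead of Vars (137 ± 5.49) and Kars (137 ± 6.97 CPM per kilobase), of which the last pair did not differ beyond their SDs. Lars and Mars lay at 93.4 ± 2.94 and 92.8 ± 1.22 CPM per kilobase in KO, also within their SDs. Iars, Farsb, Wars, Eprs, Tars, Hars and Cars followed from 77.6 down to 41.7 CPM per kilobase in KO. The lowest cytosolic levels in KO were those of Yars (33.4 ± 0.936), Rars (33.1 ± 1.72), Dars (30.7 ± 2.2), Qars (27.7 ± 1.56) and Farsa (23.5 ± 1.23 CPM per kilobase), and each of these but Farsa was within the SDs of its neighbour. The scaffold genes had the same order of means in both groups, although Aimp2 and Eef1e1 lay within their SDs in WT. Aimp2 had 21.7 ± 2.53 CPM per kilobase in KO and 17.1 ± 2.26 in WT, Eef1e1 had 16.9 ± 0.353 in KO and 16.01 ± 0.685 in WT, and Aimp1 had 10.5 ± 0.131 in KO and 8.56 ± 0.39 in WT.

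Among the mitochondrial enzymes Lars2 was the highest at 32.2 ± 13.6 CPM per kilobase in KO and 19.3 ± 0.9 in WT. In KO this mean was above those of the cytosolic Dars, Qars and Farsa, but not in every library. In KO library 04 Lars2 (20.6 CPM per kilobase) was below Dars (28.3), Qars (29.3) and Farsa (23.5). In KO library 05 it (28.9) was below Dars (31.2), and in KO library 06 it was at 47.2. Sars2 (14.7 ± 0.218 in KO and 14.995 ± 0.993 in WT) and Yars2 (13.8 ± 0.349 in KO and 14.8 ± 0.627 in WT) came next, and they did not differ beyond their SDs in WT. Tars2, Vars2 and Iars2 had 12.6 ± 0.656, 12.4 ± 1.62 and 11.9 ± 0.636 CPM per kilobase in KO, each within the SDs of its neighbour. Rars2, Aars2, Ears2, Hars2, Cars2, Fars2 and Nars2 lay between 9.73 and 2.19 CPM per kilobase in KO and between 8.89 and 2.18 in WT. The lowest were Mars2 at 1.51 ± 0.141 in KO and 1.23 ± 0.139 in WT, and Wars2 at 0.843 ± 0.221 in KO and 0.761 ± 0.0737 CPM per kilobase in WT. In each of the 15 cytosolic and mitochondrial pairs, and in each library, the cytosolic gene had the higher level per kilobase. The smallest ratios in KO were those of Yars over Yars2 (2.43 ± 0.00651 in KO and 2.19 ± 0.16 in WT), Lars over Lars2 (3.22 ± 1.18 in KO and 4.99 ± 0.163 in WT) and Rars over Rars2 (3.42 ± 0.338 in KO and 3.96 ± 0.207 in WT). The largest mean ratio in KO was Wars over Wars2 (66.3 ± 18.7 in KO and 65.9 ± 5.3 in WT), and in WT it was Mars over Mars2 (61.7 ± 5.53 in KO and 76.9 ± 8.86 in WT). Aars over Aars2 was 15.1 ± 0.776 in KO and 17.2 ± 1.01 in WT, and its libraries did not overlap. The ratios did not overlap for 5 of the 15 pairs: those of Aars, Lars, Mars and Rars were lower in every KO library, and that of Yars was higher. By the levels of single genes, 31.6% of all tested genes did not overlap, and no such share was computed for ratios. In these pairs Aars lies on chromosome 8, and Lars2 spread widely in KO.

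**Figure D4:**
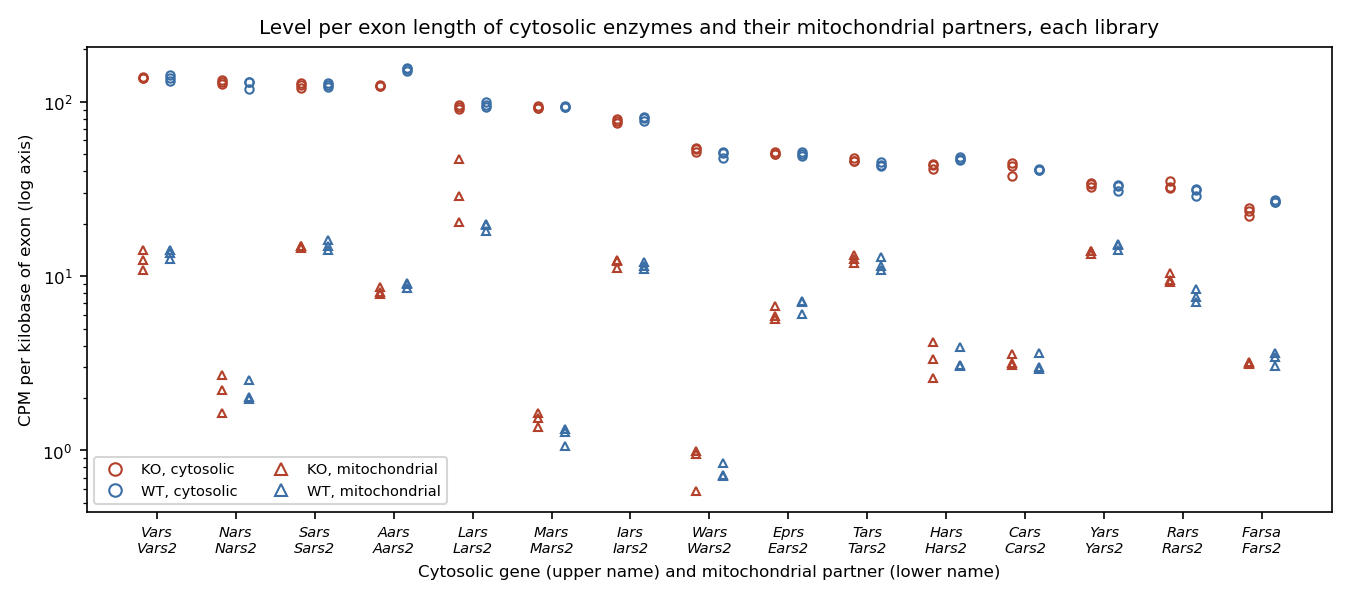
CPM per kilobase of exon (y axis, log scale) of each cytosolic enzyme (circles) and its mitochondrial partner (triangles) in each library, KO at the left of each pair and WT at the right. Gars and Kars make both enzymes and are not drawn, and every circle lies above its triangle, with narrow gaps for Yars and Yars2 and for Lars and Lars2 in KO library 06.

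Other genes of the pathway were read from lists, beside 8.13% of all tested genes called higher and 9.13% lower. Of 15 other genes of tRNA charging, among them the mitochondrial proline enzyme Pars2 and the subunits of the mitochondrial glutamine transamidase, 1 rose and none fell. It was Prorsd1, which encodes a protein with a prolyl-tRNA synthetase-associated domain, with 40, 49 and 45 counts in KO, against 29, 14 and 25 counts in WT (log2 fold change 0.84 ± 0.26, adjusted p = 0.0161, edgeR). Its adjusted p was 0.16 without WT library 02, and the call was also lost without KO library 05 or KO library 06 and in DESeq2. Of 28 tested genes of tRNA maturation and export 1 rose and 1 fell. Trmt6, a subunit of the tRNA 1-methyladenosine methyltransferase, rose, with 62.8 ± 6.56 CPM in KO and 47.2 ± 5.07 CPM in WT (SD, n = 3 each; a log2 difference of 0.41 ± 0.10, SE; adjusted p = 0.00138, edgeR). Trmt1, a tRNA dimethylguanosine methyltransferase gene on chromosome 8, fell (-0.21 ± 0.07, adjusted p = 0.0215), with a difference of -0.0025 when chromosomes were scaled separately. The call of Trmt1 was also lost without KO library 04 or 05, or WT library 01 or 02. None of the 12 elongation factor genes passed, and 2 had an unadjusted p under 0.05. The one with the smallest p was Eef1d, a subunit of the exchange factor that recharges the carrier of aminoacyl-tRNA (0.14 ± 0.05, adjusted p = 0.0506, edgeR).

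Of the 32 other genes listed for the amino acid response 3 rose and 17 fell, with a median log2 fold change of -0.20, where 8.13% of all tested genes rose and 9.13% fell. Off chromosomes 6 and 8 it was 3 and 13 of 28, with a median of -0.16, beside 8.88% and 6.19% of the genes there. Without WT library 03 there were 11 that fell. The 3 that rose were Atf5 (0.35 ± 0.08, adjusted p = 0.00072), Sesn2 (0.20 ± 0.05, adjusted p = 0.0030) and Slc38a2 (0.19 ± 0.05, adjusted p = 0.0020, edgeR). The largest falls were those of the stress-induced nuclear protein gene Nupr1 (-0.64 ± 0.09), the amino acid transporter gene Slc7a5 on chromosome 8 (-0.58 ± 0.05), the mitochondrial folate enzyme gene Mthfd2 on chromosome 6 (-0.54 ± 0.05) and the cystine transporter gene Slc7a11 (-0.54 ± 0.18, a call lost without KO library 05 or 06, or WT library 02 or 03). Atf4 itself, named for its role and not by the size of its change, had 567 ± 18.5 CPM in KO and 619 ± 21.1 CPM in WT (SD, n = 3 each; -0.13 ± 0.05, adjusted p = 0.0499, edgeR). Its call likewise ended without KO library 05 or 06, or WT library 02 or 03, with an adjusted p of up to 0.203. With scaling per chromosome Slc7a5 (-0.38 ± 0.05, adjusted p = 1.12e-08, edgeR) and Mthfd2 (-0.27 ± 0.05, adjusted p = 1.49e-05) stayed called. In that fit Asns, on chromosome 6 and lower in the main fit (-0.38 ± 0.05), was not called (-0.10 ± 0.05, adjusted p = 0.165).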

How the data were processed

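Total RNA of 6 EpiLC libraries, 3 KO and 3 WT, was depleted of ribosomal RNA, made into libraries from 500 ng with a directional kit and sequenced in paired ends of 36 bases, per the labels' protocols. The authors deposited raw counts per gene, whole numbers with no normalization, in 1 table for all libraries. It also holds p-values with their FDR and a signed fold (negative where KO is lower) of a test that the authors ran, per the file headers. Genome build mm10 and edgeR, with no versions, are named in the submitters' processing notes. The sources used here do not give the aligner, the counting program, its strand setting or the annotation. Count columns name the genotype and a library number but no replicate number. Another 18 columns of values per library were not used.

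Counts of all genes were filtered with filterByExpr, scaled by TMM (factors 0.987 to 1.015) and fitted with the robust quasi-likelihood model of edgeR 4.0.16 (R 4.3.3) with the group as its only term. Benjamini-Hochberg adjustment ran over the 11594 tested genes, and calls are at an adjusted p under 0.05. Log2 fold changes are KO minus WT, and CPM are counts scaled to 1000000 per library after TMM (for marker sums, before it). The fit was tested on simulated data. Alternatives used DESeq2 1.42.0 and limma 3.58.1, other scaling and filters, and each library left out in turn. Chosen after seeing the data were scaling per chromosome, a fit without chromosomes 6 and 8, and the ratio of Farsa to Farsb. Pairs of libraries of 1 genotype differed more than counting error (chi-square per degree of freedom 1.71 to 2.62). Each library was counted as 1 replicate, although this check cannot show that the libraries were separate cultures.

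Members and gene lists were chosen with earlier results of these data known. Per-library values are given for the called members and for the 2 uncalled members with the smallest p of each group, and, chosen after their values were seen, for Lars2, Cars2, Iars, Tars and Yars. Up to 4 called genes with the largest change are named from each other list. From the amino acid response list the genes that rose are named as well, and Atf4 for its role. The planned protein alignment was not run. Promoter windows are from RefSeq (GRCm38.p6), and exon lengths and overlaps from GENCODE M21 on the same build.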

Additional observations from a re-analysis of the deposited data

How the results depend on the processing

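Aars, Gars and Kars kept their call and direction in every alternative in which they were fitted except scaling per chromosome. Leaving out 1 library gave 3 to 4 cytosolic genes called lower, a cytosolic median log2 fold change of -0.025 to -0.0052, 0 to 2 scaffold genes called higher, 0 to 1 other charging genes higher, 1 to 2 tRNA maturation genes higher and 0 to 2 lower, 0 to 1 elongation factors higher, 11 to 14 amino acid response genes lower and 1566 to 1710 genes called in all. DESeq2 called 1262 genes. Cytosolic genes called lower were 1 without chromosomes 6 and 8 in the fit, 1 with scaling per chromosome (Dars in both), and 0 when counted without the members on chromosomes 6 and 8. The cytosolic median was 0.0069 when scaled by upper quartiles and 0.0085 when scaled by library size, while these shifted the median of all genes by 0.0154 and 0.0171. Mitochondrial genes called higher were 1 without robust estimation and 1 with limma-voom, each time Lars2. Scaffold genes called higher were 0 with DESeq2 and 1 with no low-count filter or with either chromosome alternative. Other charging genes called higher were 0 with DESeq2. Of the tRNA maturation list 2 rose under upper-quartile, library-size or per-chromosome scaling, and 0 fell with DESeq2 or either chromosome alternative. Of the elongation factors 1 rose under upper-quartile scaling, as under library-size scaling. The causes of these changes were not tested, beyond the fewer genes or samples that some alternatives hold.

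The call of Farsa was lost with upper-quartile factors, library size alone or no low-count filter (edgeR adjusted p = 0.0608, 0.0666 and 0.0519). DESeq2 did not call Farsa either (adjusted p = 0.115). With scaling per chromosome Farsa and Kars, both called lower in the fit of the Results, came to 0.011 and 5.76e-05 on the log2 scale. The sign also turned in some alternatives for members that were not called. With scaling per chromosome the log2 fold change was -0.021 for Eprs, -0.029 for Vars and 0.0052 for Hars2, and without chromosomes 6 and 8 it was -0.0097 for Eprs and -0.016 for Vars. With upper-quartile factors it was 0.0036 for Mars, 0.010 for Sars, 0.011 for Hars2 and 0.0096 for Nars2, and with library size alone 0.0052 for Mars, 0.012 for Sars, 0.013 for Hars2 and 0.012 for Nars2. It was 0.00083 for Hars2 in DESeq2. Without 1 library the values ran from -0.023 to 0.093 for Cars, -0.0052 to 0.029 for Eprs (-0.0025 without KO library 05), -0.0021 to 0.062 for Nars, -0.027 to 0.015 for Sars, -0.025 to 0.037 for Vars, -0.028 to 0.14 for Cars2 (-0.014 without WT library 01 and -0.00028 without WT library 02), -0.17 to 0.15 for Hars2 (0.13 without WT library 01), -0.17 to 0.16 for Nars2 (0.12 without WT library 01), -0.075 to 0.028 for Sars2 and -0.0041 to 0.34 for Wars2. No paired analysis was possible because the columns of the table carry library numbers and not the replicate numbers of the labels.

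At 11.2 to 17.9 CPM in Hars2 and 3.50 to 5.88 CPM in Wars2, counting error limits what can be seen: the standard errors of their log2 fold changes are 0.18 and 0.31, against at most 0.07 in the cytosolic enzymes. Exon overlaps, such as that of Iars2 with Rab3gap2 on the opposite strand (22.9% of its exon bases), add an uncertainty that the counts do not show.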
